A study of Mus musculus with 12 samples.

Results

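Antioxidant enzymes and genes of glutathione metabolism were followed across 12 microarrays of mouse blood cells and leukaemia lines. The 10 genes were chosen by name: Sod2, Cat, Gpx1, Gpx3, Gpx4, Prdx1, Txnrd1, Gclc, Gclm and Nqo1. They had 16 probe sets with a single gene symbol, all of which passed the filter on dim signals, and they make up 10 of the 17097 genes with a single symbol on the array. The arrays formed 4 groups of 3. The B6 group was wild-type hematopoietic cells, and the Ts1Cje group was hematopoietic cells of Ts1Cje mice, a Down syndrome model with an extra copy of part of chromosome 16. The B6 Trib1 and Ts1Cje Trib1 groups were acute myeloid leukaemia cell lines expressing Trib1, a pseudokinase that promotes breakdown of the transcription factor C/EBP alpha; their titles read B6 + Trib1 WT and Ts1Cje + Trib1 WT. All groups were cultured in IMDM supplemented with IL-3 (5 ng/ml) and fetal bovine serum (10%), with no further treatment. Leukaemic state and Trib1 went together whenever lines were set against hematopoietic cells. The labels name neither the vector or promoter that drove Trib1, nor the number of lines, mice or cultures behind a group, nor the age of the animals. The p-values thus rest on array-to-array spread alone, and this spread may be technical.

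Cells convert superoxide to hydrogen peroxide with superoxide dismutases and remove the peroxide with catalase, glutathione peroxidases and peroxiredoxins. Glutathione peroxidases draw on glutathione, whose rate-limiting synthesis step is carried out by glutamate-cysteine ligase, and peroxiredoxins draw on thioredoxin, which thioredoxin reductase keeps reduced. Many of these genes are targets of the transcription factor NRF2 (Nfe2l2), which binds the antioxidant response element and which KEAP1 holds in check. In myeloid cells the same enzymes meet the oxidants made by granulocytes and macrophages.

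The core of the antioxidant response element, TGACNNNGC, was searched on both strands of RefSeq promoters of 300 bases, from 250 bases before to 50 bases after an annotated start (GRCm38.p6). Promoters were found for 9 of the 10 genes, with none for Gclc. No match was found for Sod2, Cat, Gpx1, Gpx3, Gpx4 or Nqo1, and 3 of the 9 genes held a match. The windows around these matches are shown because the 3 genes include a subunit of glutamate-cysteine ligase and both members of the thioredoxin branch. They are written along the gene's own strand, with the matched bases in capitals; each match lies on the opposite strand, so that the capitals are its reverse complement.
Gclm, chr3:122245398-122245456: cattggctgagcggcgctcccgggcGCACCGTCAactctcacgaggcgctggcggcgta
Prdx1, chr4:116685441-116685499: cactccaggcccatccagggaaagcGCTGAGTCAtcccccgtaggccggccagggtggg
Txnrd1, chr10:82859089-82859147: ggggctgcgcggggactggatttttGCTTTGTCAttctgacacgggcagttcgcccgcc
The matches lie 126 to 134 bases before the start in Gclm, 125 to 133 in Prdx1 and 84 to 92 in Txnrd1, where it was found in 1 of the 3 listed promoters. Read on its own strand the Prdx1 match is TGACTCAGC, the Gclm match TGACGGTGC and the Txnrd1 match TGACAAAGC. A match stood in 12.4% of all 32851 promoters and for 3781 of 27025 genes. Among the other antioxidant pathway genes described further on, 19 of 95 had one (20%), including Nfe2l2, Sod1, Srxn1, Me1 and Mgst1. A match describes the letters in this window and shows neither binding nor its absence.

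Nqo1 and the ligase genes Gclc and Gclm had their highest means in the Ts1Cje Trib1 lines and their lowest in Ts1Cje cells, which for Nqo1 overlapped with B6. Sod2 was lower in the Trib1 lines than in hematopoietic cells of either genotype, and Gpx3, Gpx4 and Sod2 were higher in Ts1Cje than in B6 cells. In Ts1Cje against B6 cells, 3 of the 10 genes were higher and 5 lower. Of all 12560 genes tested, 52.6% passed in this comparison, 23.3% higher and 29.3% lower. In Ts1Cje Trib1 against B6 Trib1 lines, 2 were higher and 0 lower, against 21.5% of all genes passing, 11.9% higher and 9.63% lower. In B6 Trib1 against B6, 6 were higher and 3 lower, against 65.2% of all genes, 34.1% higher and 31.1% lower. In Ts1Cje Trib1 against Ts1Cje, 5 were higher and 4 lower, against 60.8%, 34.1% higher and 26.8% lower. The counts of the 10 genes were thus read against comparisons in which most genes passed, except that between the Trib1 lines. The medians of the log2 differences over the 10 genes were -0.13, 0.03, 0.16 and 0.03 in the order given, and those over all genes were 0.01, 0.00, 0.03 and 0.02. Passing means an adjusted p under 0.05 in limma, with no minimum fold. Where further probe sets of a gene are given, the background is the fit of every kept probe set, in which 48.8%, 18.1%, 62.5% and 58.6% of 20066 passed in the 4 comparisons and 44% in the interaction described further on.

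**Figure D1:**
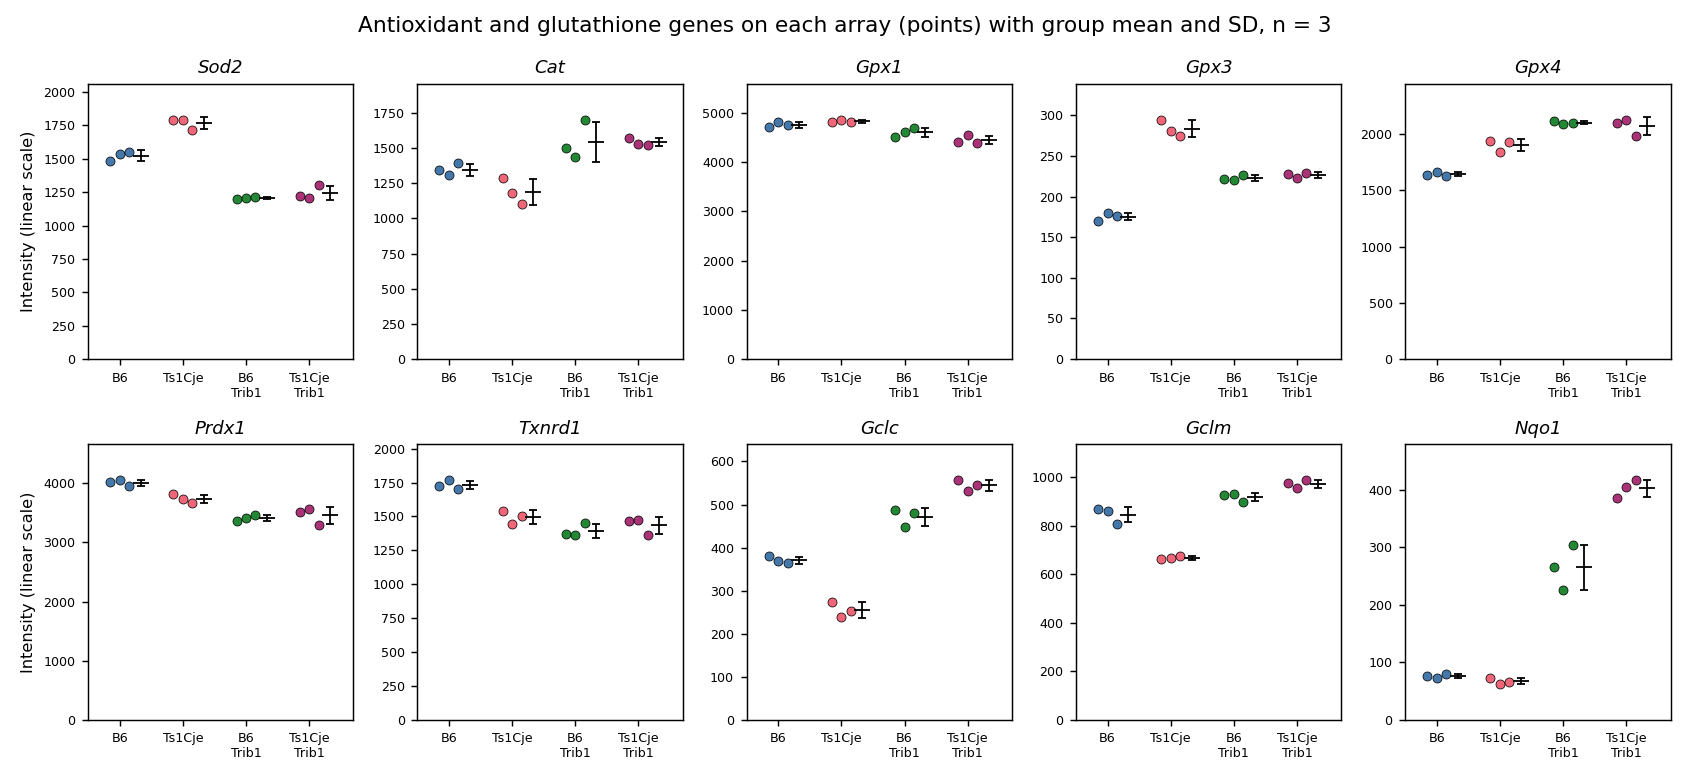
Intensity on a linear scale (y axis) of the probe set used for each of the 10 genes in the 4 groups (x axis), with a point for each array and, beside the points, the group mean and SD (n = 3). Nqo1 lies between 62.7 and 79.8 on the 6 arrays without Trib1 and between 226 and 416 on the 6 with it, and Gclc and Gclm have their lowest arrays in Ts1Cje and their highest in Ts1Cje Trib1.

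Array medians lay between 30.5 and 32.0 and maxima between 8041 and 8685, and signals under the 40th percentile, 22.0 to 23.5, were dim. Ptprc, the CD45 antigen of blood cells, was at 2021 to 3104 on all arrays, and summed intensities of 4 stromal genes were at 74.4 to 149, with collagen genes Col1a1, Col1a2 and Col3a1 below the filter. The Trib1 probe set that passed was lower in the lines (46.2 ± 2.88 and 45.9 ± 3.57) than in the cells without it (76.2 ± 7.23 and 72.0 ± 3.50). Whether it lies in the expressed construct is not known, so it does not check the labels. The balance of directions depended on the scaling. With arrays centred on the median of the genes tested, an alternative chosen after seeing the data, 68.9% of calls in Ts1Cje against B6 were higher, against 44.3% as reported. For B6 Trib1 against B6 the shares were 70.6% and 52.3%, and for the difference between the genotype differences they were 35.4% and 58.4%. This centring moved the median over all genes from 0.01 to 0.10, from 0.03 to 0.14 and from 0.01 to -0.10 in these comparisons, and small differences below should be set against that shift.

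Sod2, the superoxide dismutase of the mitochondrial matrix, was at 1480.3, 1539 and 1553 on the B6 arrays and at 1794, 1792 and 1719 on the Ts1Cje arrays. The B6 Trib1 arrays had 1197, 1205 and 1211, and the Ts1Cje Trib1 arrays 1225, 1204 and 1300.1. The Trib1 lines of either genotype overlapped and lay below all B6 arrays, which in turn lay below all Ts1Cje arrays. On the log2 scale, Sod2 was 0.21 ± 0.04 (SE, here and for all log2 differences) higher in Ts1Cje than in B6 (adjusted p = 0.000545). It was 0.34 ± 0.04 lower in B6 Trib1 than in B6 and 0.50 ± 0.04 lower in Ts1Cje Trib1 than in Ts1Cje (adjusted p = 6e-06 and 6.64e-08, differences -0.34 and -0.50). Between the lines the difference was 0.04, with a 95% interval from -0.04 to 0.13. All 4 Sod2 probe sets passed the filter, and 3 of them were lower with Trib1 in both genotypes (-0.34, -0.50 and -0.49 in B6, and -0.50, -0.60 and -0.45 in Ts1Cje). The dimmest, at 34.8 to 44.3 on all arrays, was 0.20 higher in B6 Trib1 than in B6. In Ts1Cje against B6 the probe sets differed by 0.21, 0.19, 0.16 and 0.04, and the last did not pass (adjusted p = 0.737).

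Catalase (Cat), which splits hydrogen peroxide in peroxisomes, ran the other way. It was at 1307 to 1391 on the B6 arrays, 1099 to 1285 on the Ts1Cje arrays, 1434 to 1702 on the B6 Trib1 arrays and 1520.4 to 1575 on the Ts1Cje Trib1 arrays. The lines overlapped each other and lay above all arrays without Trib1, with Ts1Cje lowest. Cat rose by 0.37 ± 0.06 in Ts1Cje Trib1 against Ts1Cje (adjusted p = 0.000186) and by 0.19 ± 0.06 in B6 Trib1 against B6 (adjusted p = 0.0196). It fell by 0.18 ± 0.06 in Ts1Cje against B6 (-0.18, adjusted p = 0.0327). The call of Ts1Cje against B6 was lost without B6 array 1 or 3 (adjusted p = 0.068 and 0.106) and without Ts1Cje array 2 or 3 (adjusted p = 0.0728 and 0.143), and with centring on the genes tested (-0.08, adjusted p = 0.194). The call of B6 Trib1 against B6 was lost without B6 array 2 or B6 Trib1 array 3 (adjusted p = 0.0677 and 0.0889, the latter at 0.12) and with median centring (adjusted p = 0.0578). The second Cat probe set had differences of -0.14, -0.07, 0.26 and 0.34 in the 4 comparisons, in the order used above, and passed in the last 2.

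Among the glutathione peroxidases, selenoproteins that reduce peroxides with glutathione, the cytosolic Gpx1 varied least. Its range of group means, 0.12 on the log2 scale, was wider than that of 11.5% of all genes tested. Gpx1 was at 4702 to 4814 in B6, 4805 to 4863 in Ts1Cje, 4381 to 4547 in Ts1Cje Trib1 and 4514 to 4695 in B6 Trib1, so that the groups of each state overlapped. It passed in 1 comparison, Ts1Cje Trib1 against Ts1Cje, with a difference of -0.12 ± 0.03 (adjusted p = 0.00681). The 95% interval of Ts1Cje against B6 ran from -0.05 to 0.09, and with centring on the genes tested this difference was 0.12 and passed (adjusted p = 0.0343).

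Gpx3, the secreted glutathione peroxidase of plasma, was at 170.4, 179 and 176 in B6 and at 295, 281 and 275 in Ts1Cje. In the lines it was at 222, 221 and 227 in B6 Trib1 and at 228, 222 and 229 in Ts1Cje Trib1. The lines overlapped and lay between the B6 arrays below and the Ts1Cje arrays above. Gpx3 rose by 0.65 ± 0.04 in Ts1Cje against B6, 1.62-fold in mean intensity (adjusted p = 1.84e-08), and differed by 0.02 between the lines (95% interval from -0.06 to 0.10). Set against the cells without Trib1 it went opposite ways, with 0.32 ± 0.04 in B6 Trib1 against B6 (adjusted p = 5.14e-06) and -0.30 ± 0.04 in Ts1Cje Trib1 against Ts1Cje (adjusted p = 7.02e-06). The test of this contrast between genotypes is given with the interaction.

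Gpx4, which reduces lipid hydroperoxides in membranes and protects cells from ferroptosis, was at 1641, 1668 and 1627 in B6 and at 1944, 1843 and 1928 in Ts1Cje. The lines had 2118, 2088 and 2103 in B6 Trib1 and 2104, 2131 and 1987 in Ts1Cje Trib1. B6 was lowest, Ts1Cje next, and the overlapping lines highest. Gpx4 rose by 0.21 ± 0.04 in Ts1Cje against B6 (adjusted p = 0.00047), by 0.35 ± 0.04 in B6 Trib1 against B6 (adjusted p = 2.72e-06) and by 0.12 ± 0.04 in Ts1Cje Trib1 against Ts1Cje (adjusted p = 0.0126). The last call was lost without Ts1Cje array 2 or Ts1Cje Trib1 array 2 (adjusted p = 0.0573 and 0.0586) and with only the compared groups in the fit (adjusted p = 0.0527). The second probe set, which is marked as able to cross-hybridize, passed in the same directions (0.24, 0.49 and 0.22).

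In Ts1Cje against B6 cells, most granulocyte and macrophage genes were higher, as were Sod2, Gpx3 and Gpx4, but the lines differed in this. Of all genes tested, 52.6% passed in Ts1Cje against B6, 23.3% higher and 29.3% lower. Of 7 secondary granule genes, 6 were higher and 1 lower in Ts1Cje than in B6, and their summed intensity was 12646 to 12671 in B6, 23496 to 23868 in Ts1Cje, 5957 to 6222 in Ts1Cje Trib1 and 10798 to 10867 in B6 Trib1. All 5 primary granule genes and 5 of 6 monocyte and macrophage genes were higher in Ts1Cje, and none of these lists had a member below the filter. Macrophage sums were 4403 to 4536 in B6, 6384 to 6437 in Ts1Cje, 909 to 1004 in Ts1Cje Trib1 and 2309 to 2349 in B6 Trib1. In the lines the secondary granule and macrophage sums were thus lower than in B6 and did not overlap between genotypes. Gpx4 had its highest means there (2103 in B6 Trib1 and 2074 in Ts1Cje Trib1), and Gpx3 lay above B6 (223 and 227 against 175). Sod2 lay below B6, and Sod2, Gpx3 and Gpx4 each overlapped between the lines. The part of these cell types in the differences was not tested, and in bulk samples fewer cells of a type and less RNA per cell cannot be told apart.

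Prdx1 and Txnrd1, the members of the thioredoxin branch, had their highest means in B6 cells. Prdx1, an abundant cytosolic peroxiredoxin that reduces hydrogen peroxide, was at 3950.1 to 4051 in B6, 3666 to 3811 in Ts1Cje, 3296 to 3561 in Ts1Cje Trib1 and 3357 to 3460.4 in B6 Trib1. The lines overlapped and lay below both groups without Trib1. Prdx1 fell by 0.23 ± 0.04 in B6 Trib1 against B6 (-0.23, adjusted p = 0.000134). Its differences in Ts1Cje against B6 (-0.10, adjusted p = 0.0384) and in Ts1Cje Trib1 against Ts1Cje (-0.11, adjusted p = 0.0197) passed as reported. The former was lost without any 1 of the B6 arrays 1, 2 and 3 or the Ts1Cje arrays 2 and 3 (adjusted p = 0.0904, 0.101, 0.0575, 0.081 and 0.116). The mean of both probe sets ended this call too, as did a fit of only the compared groups and centring on the genes tested, where the difference was -0.01 (adjusted p = 0.142, 0.0501 and 0.904). The latter was lost without Ts1Cje array 1 or Ts1Cje Trib1 array 3 (adjusted p = 0.0598 and 0.0817), and with quantile normalization or only the compared groups (adjusted p = 0.0573 and 0.0669).

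Txnrd1, the cytosolic thioredoxin reductase, was at 1727, 1766 and 1703 in B6 and at 1542, 1443 and 1499.8 in Ts1Cje. The lines had 1367, 1364 and 1449.9 in B6 Trib1 and 1463, 1477 and 1361 in Ts1Cje Trib1. B6 lay above all other arrays, and the other groups overlapped. Txnrd1 fell by 0.21 ± 0.04 in Ts1Cje against B6 (-0.21, adjusted p = 0.0013) and by 0.31 ± 0.04 in B6 Trib1 against B6 (-0.31, adjusted p = 3.43e-05). It differed by -0.06 in Ts1Cje Trib1 against Ts1Cje (adjusted p = 0.253). With centring on the genes tested the difference of Ts1Cje from B6 was -0.12 (adjusted p = 0.0277). Comparisons with B6 share the same 3 B6 arrays.

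Both subunits of glutamate-cysteine ligase had the same order of groups, Ts1Cje below B6, B6 below B6 Trib1 and B6 Trib1 below Ts1Cje Trib1, with no overlap between neighbours. The catalytic subunit Gclc was at 379.7, 369 and 364 in B6 and at 274, 238 and 253 in Ts1Cje. It was at 488, 448 and 479.7 in B6 Trib1 and at 556, 532 and 544 in Ts1Cje Trib1. Gclc fell by 0.52 ± 0.05 in Ts1Cje against B6 (-0.52, adjusted p = 2.43e-06) and rose by 0.20 ± 0.05 in Ts1Cje Trib1 against B6 Trib1 (adjusted p = 0.0111). The latter call was lost without B6 Trib1 array 2 (0.17, adjusted p = 0.0548), which was the lowest of its group. Gclc rose with Trib1 by 0.33 ± 0.05 against B6 (adjusted p = 6.4e-05) and by 1.05 ± 0.05 against Ts1Cje, 2.13-fold in mean intensity (adjusted p = 3.56e-10).

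The modifier subunit Gclm, which raises the activity of the ligase, was at 868, 859 and 809 in B6 and at 661, 666 and 675 in Ts1Cje. It was at 926, 931 and 898 in B6 Trib1 and at 976, 955 and 987 in Ts1Cje Trib1. Its spread over groups was narrower than that of Gclc, 0.53 against 1.05 on the log2 scale. Gclm fell by 0.33 ± 0.04 in Ts1Cje against B6 (-0.33, adjusted p = 8.03e-06) and rose by 0.53 ± 0.04 in Ts1Cje Trib1 against Ts1Cje (adjusted p = 2.05e-08). The lines differed by 0.08 (95% interval from 0.00 to 0.16, adjusted p = 0.146), which did not pass although their arrays did not overlap. The rise of 0.12 in B6 Trib1 against B6 (adjusted p = 0.0135) was lost without B6 array 3 (0.09, adjusted p = 0.0732).

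Nqo1, a quinone reductase that takes electrons from NADH or NADPH and is a classic NRF2 target, had the widest range of the 10 genes, 2.35 on the log2 scale, wider than that of 97.3% of all genes tested. It was at 75.9, 72.9 and 79.8 in B6 and at 73.2, 62.7 and 65.4 in Ts1Cje, groups that overlapped. It was at 266, 226 and 304 in B6 Trib1 and at 386, 404 and 416 in Ts1Cje Trib1, and every array of the latter lay above every array of the former. Nqo1 rose by 1.61 ± 0.08 in B6 Trib1 against B6, 3.48-fold in mean intensity (adjusted p = 1.27e-09). It rose by 2.35 ± 0.08, 5.99-fold, in Ts1Cje Trib1 against Ts1Cje (adjusted p = 1.35e-11). In Ts1Cje Trib1 against B6 Trib1 it rose by 0.58 ± 0.08, 1.52-fold (adjusted p = 0.000179). Ts1Cje cells differed from B6 cells by -0.15 ± 0.08 (adjusted p = 0.133), which passed with only these groups in the fit or without B6 Trib1 array 2 (adjusted p = 0.0486 and 0.0489).

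Genes of other cell types differed between these groups as well. Of all genes tested, 34.1% were higher and 31.1% lower in B6 Trib1 against B6, and 34.1% and 26.8% in Ts1Cje Trib1 against Ts1Cje. Between the lines 11.9% were higher and 9.63% lower, and the counts that follow are set beside these shares. The summed intensity of 4 erythroid genes was 1109 to 1133 in B6, 575 to 615 in Ts1Cje, 2039 to 2121 in Ts1Cje Trib1 and 1675 to 1727 in B6 Trib1. Most of it came from the haemoglobin gene Hba-a1, with means of 983 in B6, 471 in Ts1Cje, 1928 in Ts1Cje Trib1 and 1502 in B6 Trib1, and Alas2 was below the filter. Of the 3 erythroid genes tested, Hba-a1 alone had the order of Gclc and Gclm; the erythropoietin receptor Epor had means of 54.8 in B6, 59.9 in Ts1Cje, 84.1 in Ts1Cje Trib1 and 102.7 in B6 Trib1. The erythroid factor Klf1 was at 49.2 to 68.5 in group means, lower in Ts1Cje Trib1 than in B6 Trib1 (-0.23, adjusted p = 0.0349). All 5 mast cell and basophil genes were higher with Trib1 in either genotype, and their sums were 2519 to 2570.4 in B6, 3981 to 4243 in Ts1Cje, 18753 to 19583 in Ts1Cje Trib1 and 16759 to 17166 in B6 Trib1, so that Ts1Cje lay above B6, unlike in Gclc and Gclm. In Ts1Cje Trib1 against B6 Trib1, 2 of the 5 were higher, 2 lower and 1 did not pass. Fcer1a differed most, with means of 2755 in B6 Trib1 and 5231 in Ts1Cje Trib1, while Mcpt8 and Kit were lower (-0.19 and -0.22). The sum of 4 T and NK cell genes had the order of Gclc and Gclm with no overlap, at 255 to 288 in Ts1Cje, 634 to 662 in B6, 1143 to 1157 in B6 Trib1 and 1683 to 1786 in Ts1Cje Trib1. In the lines most of it was the granzyme gene Gzma (means 1039 and 1626), and the other 3 genes were lower with Trib1 in either genotype. All 4 megakaryocyte genes were higher with Trib1 in either genotype, with sums of 5695 to 6202 without and 9567 to 11486 with it. The part of these cell types in the Gclc, Gclm and Nqo1 differences was not tested.

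**Figure D2:**
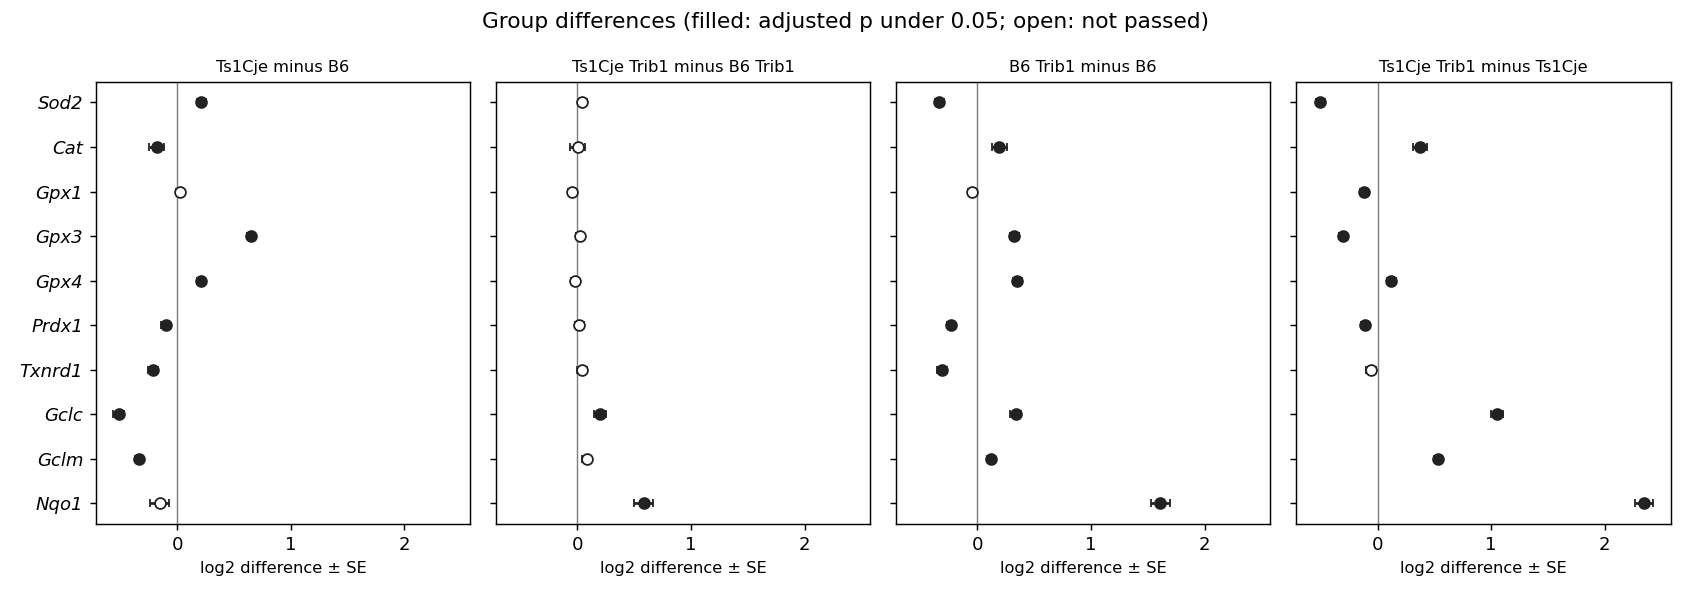
Log2 difference with its SE (x axis) of the 10 genes (rows) in the 4 comparisons between groups (panels), where filled points passed at an adjusted p under 0.05 and open points did not. In the second panel, Ts1Cje Trib1 minus B6 Trib1, the filled points are those of Gclc at 0.20 and Nqo1 at 0.58, and in the panels of Trib1 lines against cells without Trib1 Nqo1 lies farthest right at 1.61 and 2.35.

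Subtracting the genotype difference of cells without Trib1 from that of the lines gives the interaction, which asked whether trisomy went with the same difference in both states. It passed for 7 of the 10 genes, 4 positive and 3 negative, against 48.6% of all genes tested, 28.4% positive and 20.2% negative. Positive values were found for Nqo1 (0.74 ± 0.12, adjusted p = 0.000207), Gclc (0.72 ± 0.07, adjusted p = 3.43e-06), Gclm (0.42 ± 0.05, adjusted p = 3.01e-05) and Txnrd1 (0.25 ± 0.06, adjusted p = 0.00475). Negative values were found for Gpx3 (-0.63 ± 0.05, adjusted p = 7.27e-07), Gpx4 (-0.23 ± 0.05, adjusted p = 0.00335) and Sod2 (-0.17 ± 0.06, adjusted p = 0.0234). Gclc passed in both genotype comparisons, with opposite signs. Gpx3, Gpx4, Sod2, Txnrd1 and Gclm passed without Trib1 and not with it, and Nqo1 with Trib1 and not without it.

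The interactions of Nqo1, Gclc, Gclm, Gpx3 and Gpx4 passed under all 23 alternatives. That of Sod2 was lost under 6 of them. These were leaving out B6 array 1, Ts1Cje array 2, or Ts1Cje Trib1 array 1 or 2 (adjusted p = 0.0601, 0.0503, 0.0532 and 0.0615), median centring (0.0574) and the mean of its probe sets (-0.12, adjusted p = 0.0636). With every probe set fitted on its own, the Sod2 interaction passed for the brightest (-0.17) and the dimmest (-0.25). It did not pass for the others (-0.09 and 0.04, adjusted p = 0.218 and 0.818). The interaction of Txnrd1 was lost with centring on the genes tested (0.14, adjusted p = 0.0583). Cat (0.18, adjusted p = 0.116) passed without Ts1Cje array 1 or B6 Trib1 array 3 (adjusted p = 0.0332 and 0.0184). Prdx1 (0.12, adjusted p = 0.0793) passed without Ts1Cje Trib1 array 3 and with a variance trend (adjusted p = 0.0219 and 0.0176). Gpx1 (-0.07, adjusted p = 0.214) passed with centring on the genes tested (-0.18, adjusted p = 0.027).

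**Figure D3:**
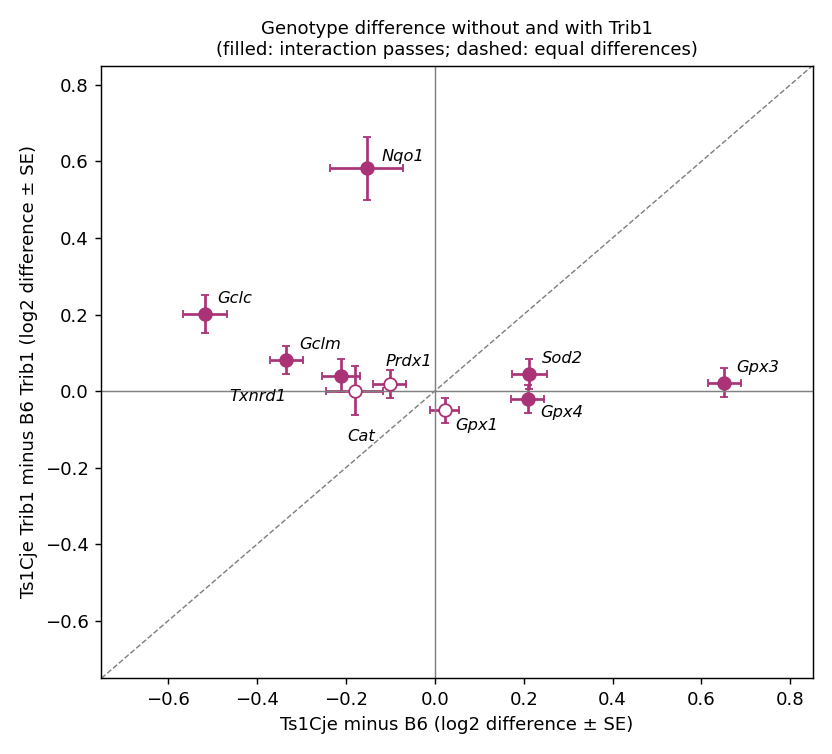
Log2 difference of Ts1Cje from B6 cells (x axis) against that of Ts1Cje Trib1 from B6 Trib1 lines (y axis) for the 10 genes, with SEs as bars; filled points passed the test of the interaction, and the dashed line marks equal differences. Gclc and Nqo1 lie above the line at -0.52 and 0.20 and at -0.15 and 0.58, and Gpx3 lies below it at 0.65 and 0.02.

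The other genes of these pathways were taken from 6 lists of 111 genes, of which 97 had a probe set with a single symbol and 92 were tested. Keap1, Prdx5, Prdx6 and G6pdx were among the genes not analysed here. In Ts1Cje against B6, 30 were higher and 23 lower, and in Ts1Cje Trib1 against B6 Trib1, 15 were higher and 15 lower, beside 52.6% and 21.5% of all genes passing. With Trib1, 32 were higher and 42 lower in the B6 background, and 27 were higher and 46 lower in the Ts1Cje background. In the last 2 comparisons 65.2% and 60.8% of all genes passed, 34.1% and 34.1% higher and 31.1% and 26.8% lower, and the counts of the lists that follow are set beside these shares.

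Most tested genes of the list for the NRF2 axis were lower with Trib1, where Nqo1 was higher. The list joined regulators, among them Nfe2l2 and the repressors Bach1 and Bach2, with target genes such as Hmox1. Nqo1, Gclc and Gclm, higher with Trib1, and Txnrd1, lower in B6 Trib1 than in B6, were not in it. Counts and medians over this list thus do not give the direction of NRF2 targets alone. Of 21 genes of the axis, 3 were higher and 14 lower in B6 Trib1 against B6 (median -0.25), and 2 were higher and 15 lower in Ts1Cje Trib1 against Ts1Cje (median -0.40), beside 31.1% and 26.8% of all genes lower. The summed intensity of 6 monocyte and macrophage genes was lower with Trib1 too, at 2309 to 2349 against 4403 to 4536 in the B6 background and at 909 to 1004 against 6384 to 6437 in the Ts1Cje background. With Trib1, 4 of the 6 were lower and 2 higher against B6, and 6 were lower against Ts1Cje. Among them C1qa, a complement gene of macrophages, was 21.6-fold lower in B6 Trib1 than in B6 and 36.1-fold lower in Ts1Cje Trib1 than in Ts1Cje in mean intensity (adjusted p = 2.96e-16 and 3.85e-17). The part of monocytes and macrophages in the lower genes of the NRF2 axis list was not tested. Heme oxygenase Hmox1, which degrades heme, was at 937, 936 and 916 in B6 and at 924, 836 and 948 in Ts1Cje. It was at 109, 98.0 and 105 in B6 Trib1 and at 99.2, 78.4 and 83.0 in Ts1Cje Trib1. The groups without Trib1 overlapped, and every Trib1 array lay below them, with differences of -2.99 ± 0.07 in B6 and -3.18 ± 0.07 in Ts1Cje (adjusted p = 3.7e-13 and 9.71e-14). Nfe2l2, which encodes NRF2, had means of 1086 ± 15.8 in B6, 1213 ± 33.2 in Ts1Cje, 1039 ± 8.53 in Ts1Cje Trib1 and 1094 ± 24.4 in B6 Trib1. It differed by 0.01 in B6 Trib1 against B6 (adjusted p = 0.81) and by -0.22 in Ts1Cje Trib1 against Ts1Cje (adjusted p = 8.58e-05). With centring on the genes tested its B6 Trib1 difference was 0.12 (adjusted p = 0.0173).

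Bach1 and Bach2, repressors that compete for antioxidant response elements, were lower with Trib1. Bach1, which represses Hmox1, was at 939.8 ± 17.3 in B6, 1113 ± 14.3 in Ts1Cje, 517 ± 34.6 in Ts1Cje Trib1 and 622 ± 26.3 in B6 Trib1. Its differences were -0.59 ± 0.05 in the B6 and -1.09 ± 0.05 in the Ts1Cje background (adjusted p = 1.73e-07 and 1.54e-10). Bach2, a related factor of B cells, fell from 375 ± 3.74 in B6 and 132 ± 15.9 in Ts1Cje to 24.1 ± 1.59 and 22.0 ± 1.67, levels at the edge of the dim range (-3.32 and -1.99, adjusted p = 8.64e-14 and 8.15e-12). Summed B cell genes ran alongside, at 2402 to 2574 in B6, 800.2 to 884 in Ts1Cje and 96.0 to 119 in the lines, and their part in the Bach2 difference was not tested. Cbr3, a carbonyl reductase gene of chromosome 16, was at 168 ± 12.7 in B6 and 336 ± 25.05 in Ts1Cje (0.94 ± 0.08, adjusted p = 4.63e-07). Cbr3 fell to 32.98 ± 1.13 and 40.3 ± 6.08 in the lines, where the genotypes differed by 0.20 (adjusted p = 0.0853). Its neighbour Cbr1, named after its values were seen, was higher with trisomy in both states (0.56 and 0.75, adjusted p = 3.32e-06 and 5.31e-07). Both genes belong to the segment present in extra copy in Ts1Cje mice.

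Several genes of glutathione synthesis and recycling were lower in the lines, where Gclc and Gclm were higher. Of 15 genes of synthesis and recycling other than the ligase, 2 were higher and 9 lower in B6 Trib1 against B6, and 3 were higher and 7 lower in Ts1Cje Trib1 against Ts1Cje, beside 31.1% and 26.8% of all genes lower. Glutathione reductase Gsr, which regenerates reduced glutathione with NADPH, was at 1552, 1502 and 1519 in B6 and at 1981, 2092 and 2036 in Ts1Cje. It was at 849.9, 869.96 and 878 in B6 Trib1 and at 696, 656 and 639.9 in Ts1Cje Trib1. Ts1Cje was highest and Ts1Cje Trib1 lowest, with no overlap between any groups. Gsr differed by 0.41 ± 0.04 in Ts1Cje against B6, by -0.38 ± 0.04 between the lines, by -0.81 ± 0.04 with Trib1 in B6 and by -1.60 ± 0.04 with Trib1 in Ts1Cje (adjusted p = 2.15e-06, 1.29e-05, 8.3e-10 and 3.77e-13). Glutaredoxin Glrx, which removes glutathione from protein thiols, had the same order (944 in B6, 1461 in Ts1Cje, 492 in Ts1Cje Trib1, 774 in B6 Trib1) and differed between the genotypes by 0.62 and -0.64 (adjusted p = 2.54e-07 and 3.89e-07). The cystine transporter Slc7a11 fell with Trib1 from 96.1 ± 9.66 to 63.1 ± 1.92 in B6 and from 107 ± 4.43 to 57.8 ± 3.31 in Ts1Cje (-0.51 and -0.75, adjusted p = 5.56e-06 and 6.92e-08).

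Glutathione transferases, which couple glutathione to electrophiles, went in both directions: of 18 tested, 9 were higher and 6 lower in B6 Trib1 against B6, and 7 were higher and 8 lower in Ts1Cje Trib1 against Ts1Cje. Of all genes, 34.1% were higher and 31.1% lower in the former and 34.1% and 26.8% in the latter. The microsomal transferase Mgst1 was at 789.7 ± 3.83 in B6, 1276 ± 89.3 in Ts1Cje, 231 ± 1.31 in Ts1Cje Trib1 and 602 ± 32.8 in B6 Trib1. Its genotype difference was 0.68 ± 0.05 without and -1.33 ± 0.05 with Trib1 (interaction -2.01, adjusted p = 2.02e-10). Gstm1 was at 660.3 ± 26.6, 1364 ± 21.6, 454 ± 14.5 and 348 ± 6.03 in the groups B6, Ts1Cje, B6 Trib1 and Ts1Cje Trib1, with genotype differences of 1.03 ± 0.04 and -0.37 ± 0.04 (adjusted p = 5.34e-10 and 1.57e-05). Mgst2 differed by 0.66 and -0.67 (adjusted p = 3.22e-08 and 5.14e-08). Gsta2 was dim without Trib1 (18.5 ± 2.26 and 15.1 ± 1.52) and reached 44.4 ± 7.32 and 59.0 ± 8.42 in the lines. It passed the filter only through arrays of the lines, where it was high, so its differences from cells without Trib1 are not given. It is still among the 18 genes tested, so the counts of this list and those over all pathway genes include it.

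Among peroxide and methionine sulfoxide enzymes, 2 of 10 were higher and 1 lower in Ts1Cje against B6, and 3 were higher and 2 lower between the lines, where 52.6% and 21.5% of all genes passed. With Trib1, 5 were higher and 2 lower against B6, and 5 were higher and 3 lower against Ts1Cje, beside 65.2% and 60.8% of all genes. Msrb1, a selenoprotein that repairs oxidised methionine, was at 1022 ± 49.3 in B6, 1764 ± 43.6 in Ts1Cje, 654 ± 24.1 in Ts1Cje Trib1 and 1031 ± 16.5 in B6 Trib1. Its genotype difference was 0.78 ± 0.04 without and -0.65 ± 0.04 with Trib1 (adjusted p = 1.32e-08 and 1.52e-07). Cytosolic superoxide dismutase Sod1, which lies on chromosome 16 at the edge of the Ts1Cje segment, was at 2083 ± 42.3 in B6 and 2023 ± 66.2 in Ts1Cje (-0.04, adjusted p = 0.378). It was at 2591 ± 53.0 in B6 Trib1 and 2867 ± 99.0 in Ts1Cje Trib1 (0.14, adjusted p = 0.0184). The latter call was lost without B6 Trib1 array 1 or 2, without Ts1Cje Trib1 array 1 or 2, and with centring on the genes tested (adjusted p = 0.0643, 0.0672, 0.0568, 0.0842 and 0.0933). Sod1 rose with Trib1 by 0.31 and 0.50 in the B6 and Ts1Cje backgrounds (adjusted p = 1.37e-05 and 8.45e-08), opposite in sign to Sod2.

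Of 14 further thioredoxin and peroxiredoxin genes, 6 were higher and 7 lower in B6 Trib1 against B6, and 5 were higher and 7 lower in Ts1Cje Trib1 against Ts1Cje, beside 65.2% and 60.8% of all genes passing and 31.1% and 26.8% lower. Prdx4, the peroxiredoxin of the endoplasmic reticulum, was at 562 ± 8.70 in B6, 452 ± 10.8 in Ts1Cje, 337 ± 7.03 in Ts1Cje Trib1 and 275 ± 11.3 in B6 Trib1 (-0.99 and -0.41 with Trib1, adjusted p = 7.09e-11 and 5.41e-07). The sestrin gene Sesn3 fell with Trib1 by 1.07 in B6 and by 0.34 in Ts1Cje (-1.07 and -0.34, adjusted p = 6.33e-10 and 4.7e-05).

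Genes that supply NADPH, the electron donor of glutathione and thioredoxin reductases, were split as well: of 14, 7 were higher and 4 lower in B6 Trib1 against B6, and 5 were higher and 6 lower in Ts1Cje Trib1 against Ts1Cje, beside 65.2% and 60.8% of all genes passing. Isocitrate dehydrogenase Idh1 had means of 1448 ± 14.7, 1967 ± 4.35, 1108 ± 17.1 and 925 ± 57.1 in B6, Ts1Cje, B6 Trib1 and Ts1Cje Trib1. Its genotype difference was 0.44 ± 0.04 without and -0.26 ± 0.04 with Trib1 (adjusted p = 2.22e-06 and 0.000589). Pgd, of the pentose phosphate pathway, had the same order of groups, with genotype differences of 0.30 and -0.22 (adjusted p = 5.61e-06 and 0.000197). Malic enzyme Me1 was higher with Trib1 (0.37 and 0.64, adjusted p = 2.04e-05 and 5.95e-08). The order of groups in Gsr, Glrx, Mgst1, Gstm1, Idh1 and Pgd was that of the summed secondary granule genes given above. The sums of the primary granule genes and of the monocyte and macrophage genes had this order too. The part of these cell types in it was not tested.

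**Figure D4:**
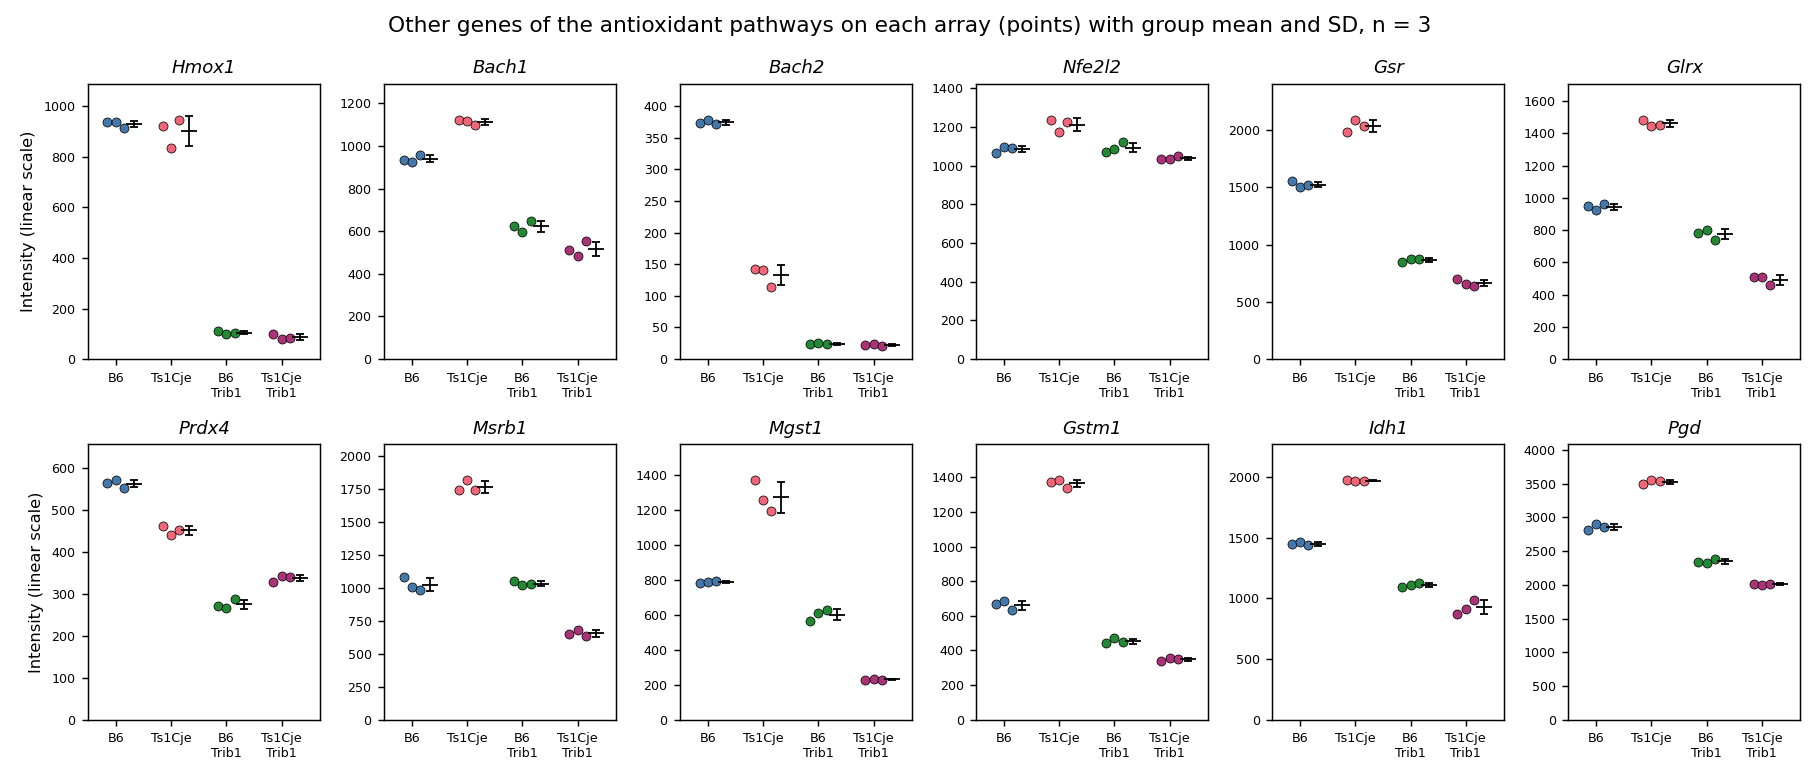
Intensity on a linear scale (y axis) of 12 other genes of the antioxidant pathways in the 4 groups (x axis), with a point for each array and the group mean and SD (n = 3) beside the points. Hmox1 stands at 836 to 948 without Trib1 and at 78.4 to 109 with it, and Gsr, Glrx, Mgst1, Gstm1, Idh1 and Pgd are highest in Ts1Cje and lowest in Ts1Cje Trib1.

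The genes whose values over the 12 arrays were most like those of Nqo1 were Nudt7, Rab19, Trim13 and Osbpl3, with Pearson correlations of log2 values from 0.997 to 0.998. Nudt7 had means of 203 in B6, 190.5 in Ts1Cje, 847 in Ts1Cje Trib1 and 612 in B6 Trib1. Those most like Gclc were Hook1, Aasdhppt, Rsad1 and Zfp763, with correlations from 0.993 to 0.995. Hook1 had means of 334 in B6, 212 in Ts1Cje, 569.9 in Ts1Cje Trib1 and 468 in B6 Trib1. The arrays fall into 4 groups, so these values describe likeness over groups and carry no test.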

How the data were processed

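Total RNA (100 ng a sample) had been hybridised to Affymetrix arrays with perfect-match probes, 1 array a sample. The deposited table gave the intensity of 45141 probe sets on a linear scale, made with MAS5 per the submitters' processing notes; MAS5 uses mismatch probes, which these arrays lack, and summarisation, scaling and genome build are not given in the sources used here. Symbols came from the platform annotation, updated through Entrez identifiers. Of the probe sets, 28898 had 1 symbol, 551 several and 15588 none, and 104 were controls. Probe sets with 1 symbol were kept when above their array's 40th percentile on at least 3 of 12 arrays (20066 probe sets), and each gene was represented by its kept probe set with the highest mean (12560 genes). Values were taken as log2(intensity + 15), 15 being the rounded 20th percentile, which draws log2 differences of dim genes towards 0. The 12 arrays entered 1 limma model (version 3.58.1, R 4.3.3) with a mean for each of 4 groups. Tests were two-sided, with Benjamini-Hochberg adjustment over all 12560 genes of a contrast. Every kept probe set was also fitted on its own. Values after ± beside intensities are SDs over n = 3 arrays; the number of arrays limits the precision.

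The 10 genes, the pathway and marker lists and the tests were chosen with earlier results of these data known. Named genes were the 10 genes, up to 4 genes of each pathway list with the smallest adjusted p, Sod1, Nfe2l2, Keap1, Bach1 and Hmox1 (Keap1 was not analysed here), and the 4 genes most correlated with each of the 2 widest-ranging members; a subset is printed, with exceptions stated. Replicate numbers were not used as pairs. The alternatives changed the scale (quantile or median centring, and an added centring on the genes tested), the offset (1, or a floor), the filter (none, or the 60th percentile), the probe sets (their mean, or none marked as cross-hybridizing), the variance model (trend, robust) and the arrays fitted (the compared groups only, or each array left out), or added a replicate block.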

Additional observations from a re-analysis of the deposited data

Results flagged for a closer look

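For 7 of the 10 genes the genotype difference with Trib1 differed from that without it in limma's interaction test, where 48.6% of all genes did. The interaction was -0.17 for Sod2, -0.63 for Gpx3, -0.23 for Gpx4, 0.25 for Txnrd1, 0.72 for Gclc, 0.42 for Gclm and 0.74 for Nqo1 on the log2 scale. Gclc had every Ts1Cje array below every B6 array and every Ts1Cje Trib1 array above every B6 Trib1 array. Groups of 3 arrays were too small to judge whether a single array was outlying. Each array was left out in turn, and calls of the 10 genes lost or gained that way stand beside their values.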

How the results depend on the processing

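The number of the 10 genes that passed stayed within 1.5 times the reported count in all 5 comparisons under every alternative, except that without B6 Trib1 array 2 Gclc was lost between the Trib1 lines; leaving out arrays gave 1 to 2 genes there against 2 as reported. With the replicate block, 8, 2, 9, 9 and 7 of the 10 genes passed, as without it, and 53, 26, 72, 72 and 49 of the other pathway genes, against 53, 30, 74, 73 and 51. Same-numbered arrays had correlations of deviations from -0.45 to 0.35, and 3 of 12 arrays were most like their own number, so the numbers were not taken as pairs. With the mean of its probe sets Slc7a11 reversed in sign. In Ts1Cje against B6 it was at -0.21 (adjusted p = 0.0358), against 0.14 with the brightest probe set, which did not pass. In the interaction it was at 0.24, which did not pass (adjusted p = 0.0816), against -0.24 with the brightest, which passed. The cause was not tested. Calls of single members that were lost or gained stand beside their values. Depth is not defined for arrays; signals near the 40th percentile, such as Bach2 in the lines and Gsta2 without Trib1, limit folds.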

Other observations

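Some pathway genes outside the naming rule, picked after their values were seen, had further patterns. Nqo2, the paralogue of Nqo1, was higher in Ts1Cje (248) and in B6 Trib1 (274) than in B6 (167), with differences of 0.53 and 0.66 (adjusted p = 2.61e-06 and 1.05e-07), and at 249 in Ts1Cje Trib1 it differed by 0.00 from Ts1Cje (adjusted p = 0.953). Biliverdin reductase Blvrb, which acts after heme oxygenase, was at 386 in B6, 568 in Ts1Cje, 258 in Ts1Cje Trib1 and 267 in B6 Trib1 (-0.51 and -1.10 with Trib1, adjusted p = 1.38e-06 and 2.56e-10). The mitochondrial peroxiredoxin Prdx3 had the order of Gclc and Gclm, with means of 1077 in Ts1Cje, 1195 in B6, 1425 in B6 Trib1 and 1538 in Ts1Cje Trib1 (interaction 0.26, adjusted p = 0.00159). Txnip, which binds and inhibits thioredoxin, was higher with Trib1 by 0.32 in B6 and 0.42 in Ts1Cje (adjusted p = 4.59e-06 and 1.99e-07).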
